A study of Mus musculus with 9 samples.

Results

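Synaptic vesicle and exocytosis genes were followed in N2A (Neuro2A) cells, a mouse neuroblastoma line, after depletion of EXOSC3 or DDX1. The group holds 48 genes, taken by symbol from a list of synapsins, synaptotagmins, SNARE proteins, their priming and recycling factors, Rab3 and active zone proteins and granins. All 48 are among the 24318 genes of both FPKM tables. Scramble and 2 depletions were compared, with 3 biological replicates each and 9 libraries in all: scramble siRNA (siScramble, labelled WT), siEXOSC3 (labelled EXOSC3 knockdown) and siDDX1 (labelled DDX1 knockdown). Every library came from the same cell line, was transfected with individual siRNAs using Lipofectamine, and is otherwise labelled untreated. EXOSC3 is a subunit of the cap of the RNA exosome, the complex that processes and degrades many RNAs from their 3′ end, and DDX1 is a putative RNA helicase of the DEAD-box family. The effect of depletion was measured on steady-state RNA of this single tumor line.

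Neurons release transmitter by calcium-triggered fusion of synaptic vesicles with the plasma membrane at the active zone. SNARE proteins on the vesicle (VAMP) and on the plasma membrane (syntaxin, SNAP-25) zip into a bundle that drives fusion, synaptotagmins sense the calcium, complexins clamp and release the bundle, and NSF with SNAP adaptors takes it apart afterwards. Neuroendocrine cells and neuroblastoma cells use the same machinery to empty dense core granules, which carry granins, neuropeptides and catecholamines.

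Values are FPKM, fragments normalized for transcript length and library size, so that levels can be compared between genes. The same 3 scramble libraries stand in both tables, scaled by Cuffdiff for each table separately, with a median ratio between the tables of 1.00793, 1.00782 and 1.01188. Each knockdown was tested against scramble within its own table, and the comparisons therefore share their controls. Scramble values quoted beside both knockdowns are those of the siEXOSC3 table. Log2(FPKM + 1) was tested two-sided with limma, leaving out genes that averaged under 1 FPKM, and a gene was called at a Benjamini-Hochberg adjusted p under 0.05 over all genes tested. Log2 fold changes are on that scale, which understates the change of low genes, whereas folds are ratios of mean FPKM. Exosc3 RNA fell to 15.5% of scramble in siEXOSC3 and Ddx1 RNA to 24.4% in siDDX1, and each overlapped scramble in the other knockdown. The absolute depth of the libraries is unknown, because FPKM does not hold read numbers.

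Most of the expressed vesicle and exocytosis genes were higher after depletion of EXOSC3. Of the 48 genes, 35 passed the filter on low values, each with a mean of at least 1 FPKM in both conditions. Of these, 26 increased and 3 decreased in siEXOSC3, whereas 16.7% of all 11242 tested genes increased and 15.7% decreased. The median log2 fold change of the 35 was 0.62, and that of all tested genes was -0.014. The largest log2 fold changes were those of Chgb, Syn2, Scg2, Cplx2 and Napb, from 1.15 to 1.56. All 3 siEXOSC3 libraries lay above all 3 scramble libraries for 25 of the 35 (23.8% of all tested genes) and below them for 4 (25.9% of all tested genes). The pattern was present in each siEXOSC3 library, with a median over the 35 genes of 0.59, 0.41 and 0.75 above the scramble mean on the log2 scale. The like median of each scramble library lay within 0.058 of the mean of the remaining scramble libraries.

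After depletion of DDX1 a smaller number of these genes was called. In siDDX1, 10 of the same 35 genes increased and 2 decreased, against 5.61% and 5.03% of all 11104 tested genes. With single libraries left out these counts ran from 2 (without scramble replicate 3) to 13 (without siDDX1 replicate 3) increased and from 0 to 3 decreased, the genes called in all from 158 (without scramble replicate 1) to 3524 (without siDDX1 replicate 3), and 2 of the 12 calls were kept in every such fit. The median log2 fold change of the 35 was 0.10, and that of all tested genes was -0.000587. The 3 siDDX1 libraries lay above scramble for 16 of the 35 (17% of all tested genes) and below it for 5 (17.8% of all tested genes). Of the genes called, 9 increased and 2 decreased in both knockdowns. Another 17 increased and 1 decreased in siEXOSC3 and were not called in siDDX1, and Syt4 was called in siDDX1 alone. The share of all tested genes called in both knockdowns was not counted. Because both comparisons use the same scramble libraries, the shared calls are not independent. In bulk RNA, a change in the number of cells that express a gene and a change in RNA per cell cannot be told apart.

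**Figure D1:**
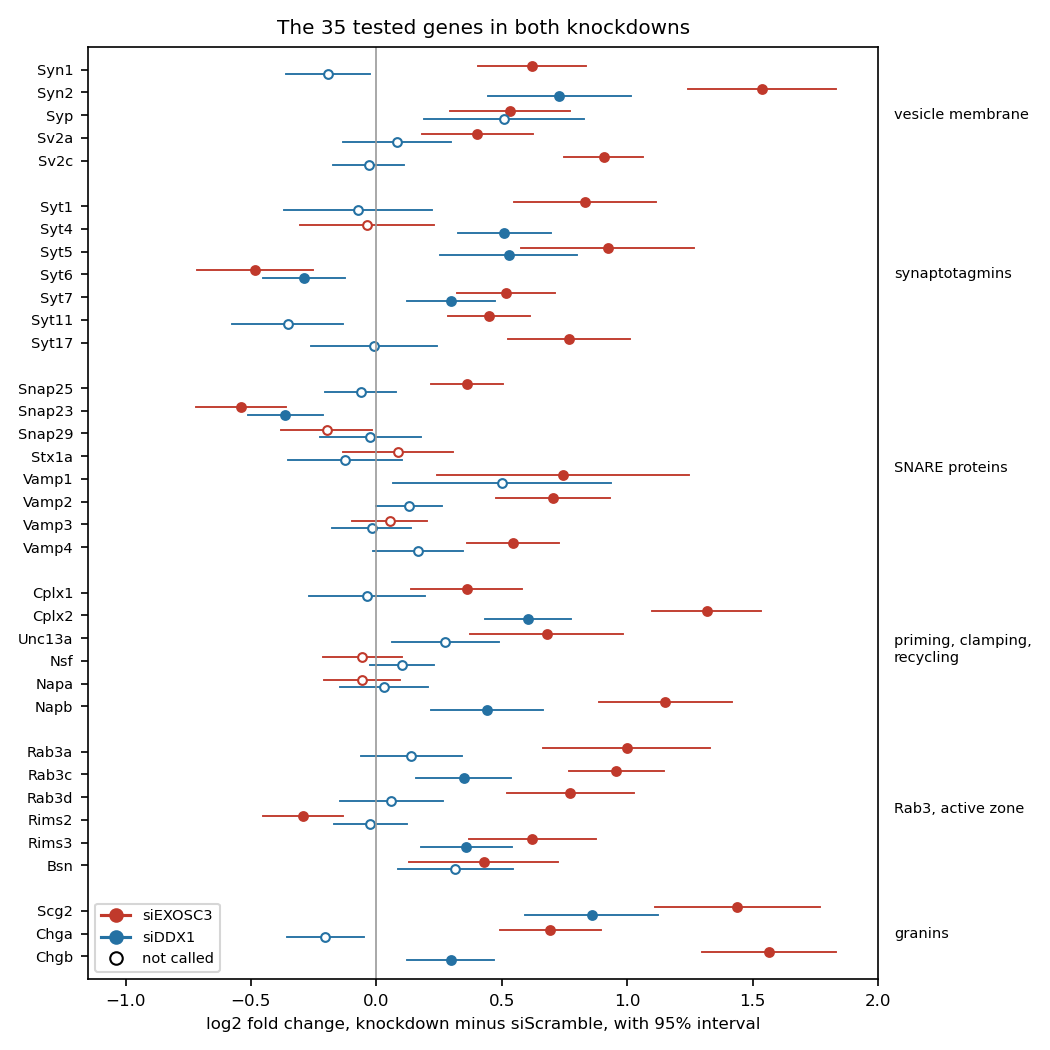
Log2 fold change of the 35 tested genes (horizontal axis, knockdown minus scramble on log2(FPKM + 1), with 95% limma interval) in siEXOSC3 (red) and siDDX1 (blue), by role. Filled points passed the adjusted p threshold: 26 increased and 3 decreased in siEXOSC3, and 10 increased and 2 decreased in siDDX1.

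In scramble cells the members spanned a wide range of levels. The 3 granins were the most abundant, with means of 119.7 (Chgb), 108 (Scg2) and 87.3 FPKM (Chga). Syt6, Syp and Snap25 followed at 69.2 ± 1.38, 64.1 ± 5.74 and 57.5 ± 2.39 FPKM (SD, n = 3). In all, 6 members had a scramble mean of at least 50 FPKM, 18 lay between 10 and 50, 11 between 1 and 10, 10 above 0 and under 1, and 3 were listed at 0. Levels differed within families. Rab3c (31.7 ± 2.31 FPKM) stood above Rab3a (3.21 ± 0.200) and Rab3d (2.37 ± 0.171), Sv2c (36.7 ± 1.46) above Sv2a (4.24 ± 0.334), and Rims2 (33.2 ± 1.36) above Rims3 (10.4 ± 0.236; all SD, n = 3). Ranges of neighbours in this order often overlapped, as those of Chgb and Scg2, Syt6 and Syp, Syt4 and Cplx1, and Cplx1, Sv2c, Vamp3 and Syn2.

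**Figure D2:**
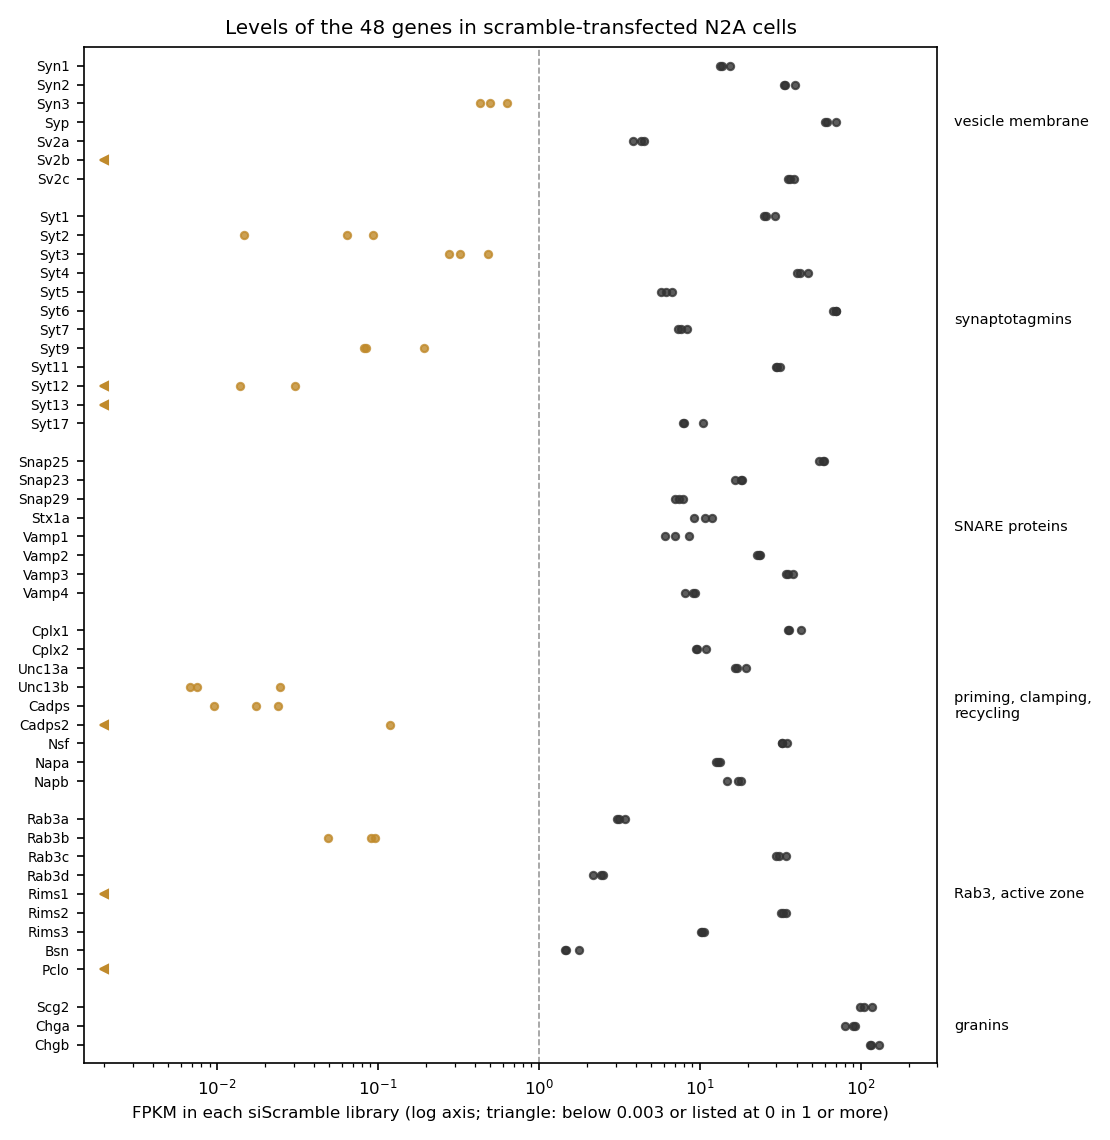
FPKM of all 48 genes in each of the 3 scramble libraries (log axis), by role. Black points mark the 35 tested genes, gold points and triangles the 13 under the filter (a triangle: under 0.003 or listed at 0 in at least 1 library); the dashed line stands at 1 FPKM, and the 3 granins lie furthest to the right.

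The granins, soluble cargo proteins of dense core granules, held 2 of the 3 largest log2 fold changes of the group. Chgb (chromogranin B) was at 114, 129 and 116 FPKM in the scramble libraries and at 329, 317 and 430.1 FPKM in siEXOSC3. That is a 2.996-fold higher mean, without overlap, and a log2 fold change of 1.56 ± 0.117 (SE, n = 3 against 3, limma adjusted p = 0.000336). In siDDX1 Chgb stood at 139, 157 and 142 FPKM, a log2 fold change of 0.30 ± 0.0752 (SE, n = 3 against 3, limma adjusted p = 0.044). Scg2 (secretogranin II, the precursor of secretoneurin) rose from 106, 117 and 99.7 FPKM to 282, 241 and 369.8 FPKM in siEXOSC3, with a log2 fold change of 1.44 ± 0.144 (SE, n = 3 against 3, limma adjusted p = 0.000835). It was the member with the largest increase in siDDX1, at 201, 222 and 163 FPKM, with a log2 fold change of 0.86 ± 0.116 (SE, n = 3 against 3, limma adjusted p = 0.0073). Every siEXOSC3 and siDDX1 library exceeded every scramble library for both genes. Chga (chromogranin A) lay at 80.4, 92.1 and 89.4 FPKM in scramble and at 141, 128 and 156 FPKM in siEXOSC3, a log2 fold change of 0.69 ± 0.0884 (SE, n = 3 against 3, limma adjusted p = 0.0019). In siDDX1 its libraries were at 77.3, 74.2 and 73.1 FPKM, all below scramble, with a log2 fold change of -0.20 ± 0.0669 (SE, n = 3 against 3, limma adjusted p = 0.085), which did not pass.

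Upstream sequence was searched in every member with a promoter window. RefSeq promoter windows on GRCm38.p6 were at hand for 37 of the 48 genes, and the 250 bases before the start were searched on both strands for TGACGTCA (the cAMP response element, CRE), GGGCGG (GC box), CACGTG (E-box), TATAA, and the left and right parts of the RE1 element bound by REST, CAGCACC and GGACAGC. The CRE was found in 3 members, Chgb, Scg2 and Syn1. These are 11.1% of the 27 tested members with a window, against 3.39% of the 8595 genes tested in siEXOSC3 that have one. All 3 increased in siEXOSC3, as did 21 of the 27 tested members with a window. The 30 bases around each CRE are shown to place this motif in its context, with the CRE in capitals, on the sense strand and with positions in NCBIM37 (mm9), the build of the files:
Chgb: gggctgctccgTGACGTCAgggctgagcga
Scg2: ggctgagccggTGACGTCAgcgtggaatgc
Syn1: caaaggctgacTGACGTCActcactagccc
They lie at chr2:132607295-132607324 (plus strand), chr1:79436651-79436680 (minus strand) and chrX:20498185-20498214 (minus strand). The CRE itself spans bases -72 to -65 before the RefSeq start in Chgb, -68 to -61 in Scg2 and -159 to -152 in Syn1. In GENCODE vM1, Chgb (chr2:132607014-132620815, plus strand), Scg2 (chr1:79431244-79436665, minus strand) and Syn1 (chrX:20437637-20498130, minus strand) start elsewhere, so that the Chgb stretch is within an annotated exon, the CRE of Scg2 crosses the gene's 5′ end and that of Syn1 lies upstream of it. Scg2 also holds TATAA and, next to each other, both RE1 parts in reverse orientation in the 30 bases before its start (chr1:79436602-79436631, minus strand, these 3 motifs in capitals):
Scg2 start: ctcTATAAgccgaggaGCTGTCCGGTGCTG
The left part of RE1 was present in 5 of the 27 tested members with a window (7.04% of tested genes), namely Chgb, Napa, Scg2, Sv2c and Syn1. The GC box was present in 19 of the 27, or 70.4%, against 65.7% of tested genes. The E-box was in 4 of them (10.1% of tested genes), 1 of the 21 that increased in siEXOSC3 and 3 of the other 6, TATAA in 2 (13.8%) and the right part of RE1 in 2 (7.49%). For Snap23 (gene at chr2:120393407-120426991), the member with the largest decrease in both knockdowns, the whole window (chr2:120393157-120393406, plus strand) is shown, and it held none of the 6 motifs:
Snap23: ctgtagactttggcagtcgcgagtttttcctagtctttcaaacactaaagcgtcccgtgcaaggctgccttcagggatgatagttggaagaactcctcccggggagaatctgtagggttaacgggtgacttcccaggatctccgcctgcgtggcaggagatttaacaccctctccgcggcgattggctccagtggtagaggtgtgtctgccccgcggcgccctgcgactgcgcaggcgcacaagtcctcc
A match of letters is a description of the window and no evidence of binding.

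The vesicle membrane and surface proteins were raised in siEXOSC3 in all 5 tested members, where 16.7% of all tested genes increased. For siDDX1 the count was 1 of the 5 (20%, against 5.61%). Synapsins are phosphoproteins that coat vesicles and hold them in a reserve pool. Syn2 was at 34.1, 39.2 and 33.6 FPKM in scramble, 100.5, 89.5 and 129 in siEXOSC3 and 64.4, 66.5 and 47.98 in siDDX1. No library of either knockdown overlapped scramble. The log2 fold change was 1.54 ± 0.129 (SE, n = 3 against 3, limma adjusted p = 0.000522) in siEXOSC3, and 0.73 ± 0.124 (SE, n = 3 against 3, limma adjusted p = 0.013) in siDDX1. Syn1 was at 13.7, 13.3 and 15.5 FPKM in scramble, 21.8, 20.3 and 24.9 in siEXOSC3 and 12.1, 12.1 and 12.1 in siDDX1. It was above scramble in every siEXOSC3 library, with a log2 fold change of 0.62 ± 0.0935 (SE, n = 3 against 3, limma adjusted p = 0.00322). In siDDX1 every library was below scramble, but the log2 fold change of -0.19 did not pass (limma adjusted p = 0.121).

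Synaptophysin (Syp), a major membrane protein of synaptic vesicles that binds synaptobrevin, was at 60.2, 70.7 and 61.5 FPKM in scramble, 93.7, 81.2 and 106 in siEXOSC3 and 102, 103 and 71.2 in siDDX1. Its log2 fold change was 0.53 ± 0.105 (SE, n = 3 against 3, limma adjusted p = 0.00809) in siEXOSC3. The value in siDDX1 was of like size, 0.51, with a wider interval of 0.19 to 0.83, and did not pass (limma adjusted p = 0.0532). SV2 proteins are vesicle glycoproteins that serve as receptors for botulinum neurotoxins. Sv2c was at 35.5, 38.3 and 36.3 FPKM in scramble, 70.2, 65.4 and 73.3 in siEXOSC3 and 36.1, 36.8 and 33.9 in siDDX1. It rose in siEXOSC3 by 0.91 ± 0.0683 (SE, n = 3 against 3, limma adjusted p = 0.000336) on the log2 scale, and its siDDX1 libraries overlapped scramble (95% interval -0.17 to 0.11). Sv2a, the binding site of the drug levetiracetam, was at 4.51, 4.35 and 3.87 FPKM in scramble, 6.28, 5.27 and 6.24 in siEXOSC3 and 4.72, 4.72 and 4.08 in siDDX1. It increased in siEXOSC3 with a log2 fold change of 0.40 ± 0.0965 (SE, n = 3 against 3, limma adjusted p = 0.0161), and adjusted p ran from 0.00488 to 0.0657 when single libraries were left out, above 0.05 without scramble replicate 3 or siEXOSC3 replicate 1. Syn3 and Sv2b were under the filter, and Syn3, the more abundant of them, was at 0.636, 0.499 and 0.431 FPKM in scramble, 0.497, 0.566 and 0.525 in siEXOSC3 and 0.597, 0.576 and 0.479 in siDDX1.

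**Figure D3:**
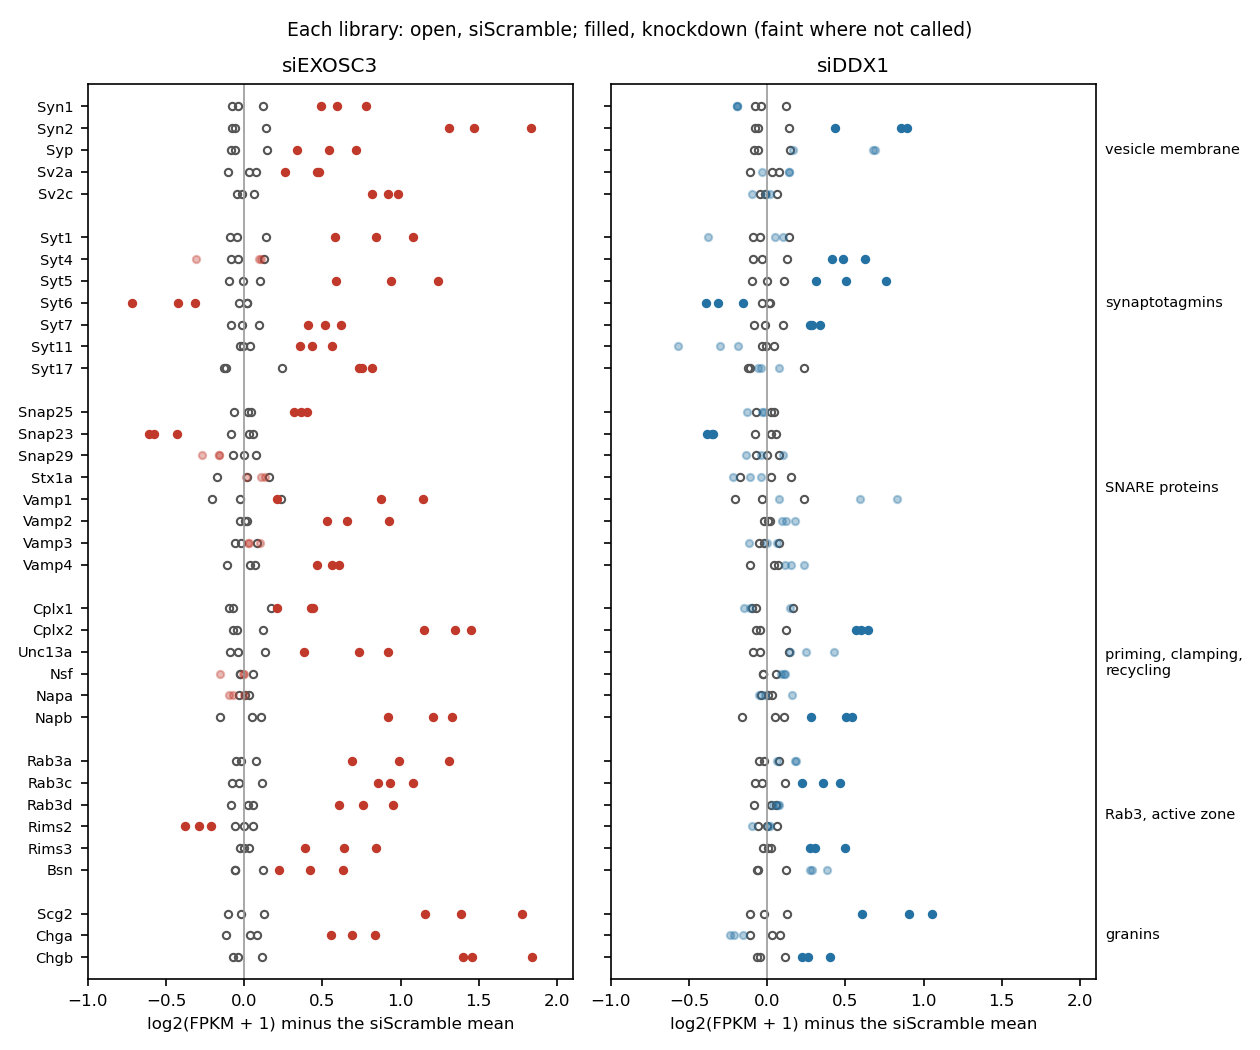
Each library's log2(FPKM + 1) minus the scramble mean (horizontal axis) for the 35 tested genes, siEXOSC3 on the left and siDDX1 on the right. Open points are the 3 scramble libraries and filled points the 3 knockdown libraries, faint where the gene was not called; 25 genes lie wholly to the right of scramble in siEXOSC3 and 16 in siDDX1.

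Of the 7 synaptotagmins tested, 5 increased in siEXOSC3 (71.4%, against 16.7% of all tested genes) and 1 decreased (14.3%, against 15.7%). In siDDX1, 3 increased (42.9%, against 5.61%) and 1 decreased (14.3%, against 5.03%). Syt1, the calcium sensor of fast release, was at 25.8, 29.5 and 25.05 FPKM in scramble and 48.6, 40.4 and 57.4 in siEXOSC3, a log2 fold change of 0.83 ± 0.124 (SE, n = 3 against 3, limma adjusted p = 0.00313). It stayed at 27.5, 28.5 and 20.1 FPKM in siDDX1, overlapping scramble, with a 95% interval of -0.37 to 0.22. Syt5, a calcium-binding relative of Syt1, was at 6.72, 6.16 and 5.73 FPKM in scramble, 12.8, 9.78 and 16.003 in siEXOSC3 and 11.1, 9.13 and 7.87 in siDDX1. It rose in both knockdowns, with a log2 fold change of 0.92 ± 0.152 (SE, n = 3 against 3, limma adjusted p = 0.0043) in siEXOSC3 and of 0.53 ± 0.120 (SE, n = 3 against 3, limma adjusted p = 0.0303) in siDDX1. Syt7, a sensor with high calcium affinity that acts in slower release and in granule exocytosis, was at 7.70, 8.39 and 7.29 FPKM in scramble, 11.6, 10.7 and 12.5 in siEXOSC3 and 9.52, 9.60 and 10.02 in siDDX1. Its log2 fold changes were 0.52 ± 0.0858 (SE, n = 3 against 3, limma adjusted p = 0.00442) and 0.30 ± 0.0766 (SE, n = 3 against 3, limma adjusted p = 0.0445), in the same order, and neither knockdown overlapped scramble.

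Syt11 and Syt17 are atypical synaptotagmins that do not act as calcium sensors. Syt11 was at 30.4, 31.4 and 29.97 FPKM in scramble and 41.6, 39.4 and 45.6 in siEXOSC3, a log2 fold change of 0.45 ± 0.0714 (SE, n = 3 against 3, limma adjusted p = 0.00391). In siDDX1 all 3 libraries were below scramble, at 26.5, 24.4 and 20.05 FPKM, but the log2 fold change of -0.35 did not pass (limma adjusted p = 0.0532). Syt17 was at 7.95, 7.86 and 10.4 FPKM in scramble, 15.1, 16.04 and 15.3 in siEXOSC3 and 8.34, 9.10 and 8.22 in siDDX1. It rose in siEXOSC3, with a log2 fold change of 0.77 ± 0.106 (SE, n = 3 against 3, limma adjusted p = 0.00246), and overlapped scramble in siDDX1. The most abundant synaptotagmin RNA was Syt6, which decreased in both knockdowns. Syt6 was at 69.97, 67.6 and 70.03 FPKM in scramble, 51.4, 55.5 and 41.7 in siEXOSC3 and 54.8, 51.9 and 61.4 in siDDX1, with every knockdown library below scramble. Its log2 fold changes were -0.48 ± 0.101 (SE, n = 3 against 3, limma adjusted p = 0.00972) in siEXOSC3, and -0.29 ± 0.0711 (SE, n = 3 against 3, limma adjusted p = 0.0398) in siDDX1. Syt4, which is found on dense core vesicles, was called in siDDX1 alone. It was at 46.9, 41.8 and 40.4 FPKM in scramble, 45.8, 46.3 and 34.5 in siEXOSC3 and 59.98, 57.1 and 66.3 in siDDX1. The siDDX1 libraries lay above scramble, with a log2 fold change of 0.51 ± 0.0807 (SE, n = 3 against 3, limma adjusted p = 0.0106), whereas siEXOSC3 overlapped scramble, with -0.04 (95% interval -0.30 to 0.23, limma adjusted p = 0.827). Among the 5 synaptotagmins under the filter, the highest was Syt3, at 0.275, 0.481 and 0.325 FPKM in scramble, 0.896, 0.843 and 1.29 in siEXOSC3 and 0.323, 0.344 and 0.209 in siDDX1.

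All 8 SNARE genes were tested, and 4 increased (50%, against 16.7% of all tested genes) and 1 decreased (12.5%, against 15.7%) in siEXOSC3. For siDDX1 the counts were 0 increased (against 5.61%) and 1 decreased (12.5%, against 5.03%). Snap25 and Snap23 encode plasma membrane SNAREs of the same type, the former enriched in neurons and the latter found in most cells, and they moved in opposite directions. Snap25 was at 58.5, 59.3 and 54.8 FPKM in scramble and 76.2, 72.01 and 74.03 in siEXOSC3, a log2 fold change of 0.36 ± 0.0623 (SE, n = 3 against 3, limma adjusted p = 0.00515). Its siDDX1 libraries, at 51.9, 56.1 and 55.6 FPKM, overlapped scramble (95% interval -0.20 to 0.08). Snap23 was at 18.3, 16.6 and 17.98 FPKM in scramble, 11.5, 12.8 and 11.2 in siEXOSC3 and 13.5, 13.1 and 13.5 in siDDX1. It was lower than scramble in all libraries of both knockdowns. The log2 fold changes were -0.54 ± 0.0786 (SE, n = 3 against 3, limma adjusted p = 0.00293) in siEXOSC3, and -0.36 ± 0.0658 (SE, n = 3 against 3, limma adjusted p = 0.0154) in siDDX1.

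Synaptobrevins are the vesicle SNAREs. Vamp2, the main one of synaptic vesicles, was at 22.8, 23.3 and 23.6 FPKM in scramble and 37.3, 33.9 and 45.1 in siEXOSC3, a log2 fold change of 0.70 ± 0.0996 (SE, n = 3 against 3, limma adjusted p = 0.00267). In siDDX1 it was at 25.2, 26.2 and 24.7 FPKM, above scramble in all 3 libraries but not called (0.13, 95% interval -0.000628 to 0.26, limma adjusted p = 0.167). Vamp4, a SNARE of the trans-Golgi network and endosomes, was at 9.15, 8.16 and 9.38 FPKM in scramble, 13.6, 12.6 and 14.05 in siEXOSC3 and 9.88, 10.5 and 9.60 in siDDX1. It rose in siEXOSC3, with a log2 fold change of 0.54 ± 0.0802 (SE, n = 3 against 3, limma adjusted p = 0.00304). Vamp1, the synaptobrevin of spinal cord and motor terminals, was at 6.11, 8.64 and 7.04 FPKM in scramble, 14.02, 8.48 and 17.1 in siEXOSC3 and 11.3, 13.4 and 7.58 in siDDX1, and overlapped scramble in both knockdowns. The call of an increase in siEXOSC3, a log2 fold change of 0.74 ± 0.220 (SE, n = 3 against 3, limma adjusted p = 0.0337), was lost (adjusted p up to 0.117) without scramble replicate 1 or 3 or siEXOSC3 replicate 1 or 3. Vamp3 (cellubrevin), Snap29 and Stx1a, which act in membrane fusion in many cell types or, for Stx1a, in neurons, were called in neither knockdown. Vamp3, the most abundant of them, was at 34.6, 35.5 and 38.1 FPKM in scramble, 38.8, 36.9 and 36.6 in siEXOSC3 and 37.3, 35.7 and 32.9 in siDDX1. Its 95% intervals were -0.10 to 0.20 in siEXOSC3 and -0.18 to 0.14 in siDDX1. Snap29 lay below scramble in all 3 siEXOSC3 libraries without passing (limma adjusted p = 0.0872).

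Of the 6 tested priming, clamping and recycling genes, 4 increased in siEXOSC3 (66.7%, against 16.7% of all tested genes) and 2 in siDDX1 (33.3%, against 5.61%). Complexins bind the assembled SNARE bundle and control the moment of fusion. Cplx2 was at 9.60, 10.9 and 9.43 FPKM in scramble, 26.8, 23.3 and 28.9 in siEXOSC3 and 15.1, 15.5 and 15.97 in siDDX1, without overlap. Its log2 fold changes were 1.32 ± 0.0950 (SE, n = 3 against 3, limma adjusted p = 0.000336) and 0.60 ± 0.0753 (SE, n = 3 against 3, limma adjusted p = 0.00645), in the same order. Cplx1, the more abundant complexin RNA in scramble, was at 35.9, 35.2 and 42.6 FPKM in scramble, 43.8, 51.6 and 51.1 in siEXOSC3 and 34.5, 33.7 and 41.5 in siDDX1. It rose in siEXOSC3, with a log2 fold change of 0.36 ± 0.0961 (SE, n = 3 against 3, limma adjusted p = 0.0235), and adjusted p ran from 0.026 to 0.0937 with single libraries left out, above 0.05 without scramble replicate 1 or 2. Unc13a (Munc13-1), which primes vesicles for release, was at 16.5, 19.5 and 17.1 FPKM in scramble, 29.997, 23.3 and 34.3 in siEXOSC3 and 20.96, 23.9 and 19.5 in siDDX1. All knockdown libraries were above scramble. The siEXOSC3 log2 fold change was 0.68 ± 0.133 (SE, n = 3 against 3, limma adjusted p = 0.00791), and the siDDX1 value of 0.27 did not pass (limma adjusted p = 0.0938).

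NSF and its SNAP adaptors recycle SNAREs after fusion, and here the adaptor genes differed. Napb (beta-SNAP, enriched in brain) was at 17.2, 17.96 and 14.8 FPKM in scramble, 39.7, 32.2 and 43.1 in siEXOSC3 and 23.7, 24.4 and 20.2 in siDDX1. It rose in both, with a log2 fold change of 1.15 ± 0.116 (SE, n = 3 against 3, limma adjusted p = 0.000835) in siEXOSC3 and of 0.44 ± 0.0976 (SE, n = 3 against 3, limma adjusted p = 0.0285) in siDDX1. Nsf and Napa (alpha-SNAP), which every cell uses, were called in neither knockdown. Nsf was at 32.7, 32.6 and 34.7 FPKM in scramble, 29.9, 33.05 and 33.2 in siEXOSC3 and 35.1, 35.8 and 35.6 in siDDX1. All 3 siDDX1 libraries of Nsf were above scramble, without a call. The 95% interval of its log2 fold change in siEXOSC3 was -0.21 to 0.10, and that of Napa was -0.21 to 0.10. Unc13b, Cadps and Cadps2, priming factors as well, were under the filter with means under 0.1 FPKM in every condition.

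Rab3 proteins are small GTPases on vesicles and granules, and RIM and Bassoon are scaffold proteins of the active zone. Of the 6 tested, 5 increased (83.3%, against 16.7% of all tested genes) and 1 decreased (16.7%, against 15.7%) in siEXOSC3. For siDDX1 the count was 2 increased (33.3%, against 5.61%). Rab3c was at 29.9, 34.3 and 30.98 FPKM in scramble, 61.3, 58.1 and 68.2 in siEXOSC3 and 36.8, 40.5 and 43.7 in siDDX1. Its log2 fold changes were 0.96 ± 0.0826 (SE, n = 3 against 3, limma adjusted p = 0.000522) and 0.35 ± 0.0823 (SE, n = 3 against 3, limma adjusted p = 0.0356), in the same order. Rab3a was at 3.05, 3.43 and 3.15 FPKM in scramble, 5.79, 7.35 and 9.42 in siEXOSC3 and 3.73, 3.73 and 3.35 in siDDX1. It rose in siEXOSC3, with a log2 fold change of 1.00 ± 0.146 (SE, n = 3 against 3, limma adjusted p = 0.00299). Rab3d was at 2.50, 2.18 and 2.43 FPKM in scramble, 4.71, 4.13 and 5.50 in siEXOSC3 and 2.52, 2.51 and 2.43 in siDDX1, with a siEXOSC3 log2 fold change of 0.77 ± 0.110 (SE, n = 3 against 3, limma adjusted p = 0.00272). In siDDX1 both overlapped scramble, with 95% intervals of -0.06 to 0.34 and -0.15 to 0.26. Rab3b, under the filter, was at 0.0907, 0.0492 and 0.0958 FPKM in scramble, 0.0183, 0.0463 and 0.0871 in siEXOSC3 and 0.0154, 0.0434 and 0.0125 in siDDX1.

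The RIM genes went in opposite directions in siEXOSC3. Rims2, a long RIM that binds Rab3 and Munc13, was at 34.6, 33.2 and 31.9 FPKM in scramble, 26.97, 28.5 and 25.3 in siEXOSC3 and 30.7, 33.3 and 33.03 in siDDX1. It decreased in siEXOSC3, with a log2 fold change of -0.29 ± 0.0698 (SE, n = 3 against 3, limma adjusted p = 0.0155), and adjusted p ran from 0.0062 to 0.0768 with single libraries left out, above 0.05 without scramble replicate 1 or 2 or siEXOSC3 replicate 1. Rims3, a short RIM without the Rab3-binding part, was at 10.4, 10.1 and 10.6 FPKM in scramble, 16.7, 13.8 and 19.4 in siEXOSC3 and 14.9, 12.9 and 12.6 in siDDX1. It rose in both, with a log2 fold change of 0.62 ± 0.111 (SE, n = 3 against 3, limma adjusted p = 0.00573) in siEXOSC3 and of 0.36 ± 0.0793 (SE, n = 3 against 3, limma adjusted p = 0.0282) in siDDX1. Bassoon (Bsn) was low, at 1.47, 1.79 and 1.46 FPKM in scramble, 2.44, 1.999 and 2.98 in siEXOSC3 and 2.09, 2.33 and 2.11 in siDDX1. Its log2 fold change in siEXOSC3 was 0.43 ± 0.130 (SE, n = 3 against 3, limma adjusted p = 0.0367). That call was kept with siEXOSC3 replicate 2 left out and lost when any other library was (adjusted p 0.0101 to 0.121 over the 6 fits). Rims1 and Syt13 were listed at 0 in every library. Piccolo (Pclo), the partner of Bassoon, was at or below 0.00275 FPKM throughout, and a zero in these tables can also be an estimate that failed.

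The calls were repeated with each library left out in turn. In siEXOSC3, 24 of the 29 calls were kept in all 6 fits, and in siDDX1 those of Cplx2 and Scg2. Members increased and decreased in siDDX1 numbered 3 and 0 without scramble replicate 1, 5 and 1 without scramble replicate 2, and 2 and 0 without scramble replicate 3. They numbered 5 and 2 without siDDX1 replicate 1, 4 and 0 without replicate 2, and 13 and 3 without replicate 3. Syt5, Syt6, Syt7, Napb, Rims3 and Chgb kept their call in 1 of the 6 fits, that without siDDX1 replicate 3, and their highest adjusted p over the 6 fits was 0.123, 0.147, 0.159, 0.11, 0.114 and 0.17. For Snap23 and Rab3c the call was lost without scramble replicate 1, scramble replicate 3 or siDDX1 replicate 2 (up to 0.0911 and 0.145). Syn2 lost it without scramble replicate 1 or 3 (up to 0.071) and Syt4 without scramble replicate 3 (0.0582). The direction of all 12 was the same in every fit.

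Ratios within families show the unequal change of related genes. The Snap25 to Snap23 ratio of FPKM was 3.19, 3.58 and 3.05 in scramble, 6.65, 5.61 and 6.62 in siEXOSC3, and 3.84, 4.28 and 4.13 in siDDX1. In both knockdowns it lay above scramble in every library. The Vamp2 to Vamp3 ratio was 0.660, 0.658 and 0.619 in scramble and 0.963, 0.920 and 1.23 in siEXOSC3, so that Vamp2 RNA reached about the level of Vamp3. In siDDX1 it was 0.674, 0.735 and 0.751. Rims3 to Rims2 went from 0.300, 0.305 and 0.332 to 0.618, 0.486 and 0.766 in siEXOSC3 and to 0.486, 0.388 and 0.381 in siDDX1. The Syn2 to Syn1 ratio was 2.49, 2.94 and 2.17 in scramble, 4.61, 4.42 and 5.18 in siEXOSC3, and 5.31, 5.50 and 3.95 in siDDX1. These pairs were picked with the values of their members known, and no test was made on them.

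**Figure D4:**
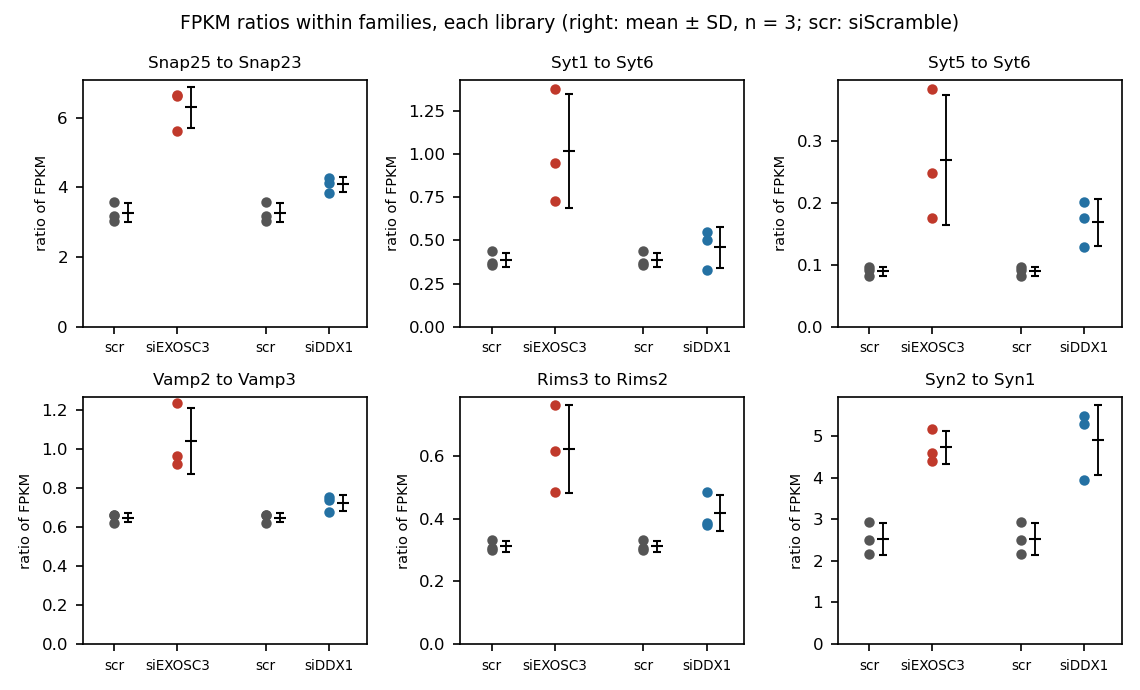
Ratio of FPKM between 2 members of a family in each library (vertical axes, from 0) for 6 pairs, with mean ± SD (n = 3) to the right of the points. The scramble libraries (grey) are drawn once per table; the Snap25 to Snap23 ratio averages 3.27 in scramble, 6.29 in siEXOSC3 and 4.09 in siDDX1.

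Other genes of the vesicle cycle were read in the same way. A list of 93 further genes was compiled, of which 92 were found and 59 tested in siEXOSC3: 28 increased (47.5%, against 16.7% of all tested genes), 5 decreased (8.47%, against 15.7%), and the median log2 fold change was 0.21. Of the dense core granule genes, the 9 with at least 1 FPKM in both conditions all increased in siEXOSC3, against 16.7% of all tested genes. Pcsk2, a prohormone convertase that passed the filter only through the knockdown, increased as well. In siDDX1, 1 of 9 increased (11.1%, against 5.61% of all tested genes), 4 of the 9 values were positive and 5 negative, and their median was -0.04. Ptprn2, a granule membrane protein, was at 2.34, 3.52 and 2.95 FPKM in scramble and 6.25, 4.61 and 8.46 in siEXOSC3, a log2 fold change of 0.90 ± 0.189 (SE, n = 3 against 3, limma adjusted p = 0.0102). Dbh, which makes noradrenaline inside granules, was at 3.83, 4.70 and 5.05 FPKM in scramble and 9.05, 8.35 and 10.01 in siEXOSC3, a log2 fold change of 0.88 ± 0.108 (SE, n = 3 against 3, limma adjusted p = 0.00164). Of the vesicular transmitter transporters a single gene was tested, Slc18a2, the vesicular monoamine transporter, which went from 5.84, 6.67 and 5.28 to 13.3, 10.03 and 14.6 FPKM, a log2 fold change of 0.97 ± 0.136 (SE, n = 3 against 3, limma adjusted p = 0.00263). Among Rab3 effectors and active zone genes 5 of 11 increased (45.5%, against 16.7% of all tested genes) and 1 decreased (9.09%, against 15.7%). The largest changes were those of Erc2, Rimbp2 and Ppfia2 (log2 fold changes 0.66, 0.61 and 0.52, limma adjusted p = 0.00403, 0.0126 and 0.0163).

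Of the 13 further vesicle proteins and synaptotagmin relatives tested, 5 increased (38.5%, against 16.7% of all tested genes) and 2 decreased (15.4%, against 15.7%) in siEXOSC3. Syngr1, Syngr4 and Scamp1 had the largest changes (log2 fold changes 0.64, 0.56 and 0.49, limma adjusted p = 0.00442, 0.0178 and 0.0034). Of the 11 further SNAREs and docking factors, 4 increased (36.4%, against 16.7% of all tested genes), among them Stx4a, a syntaxin of the plasma membrane (log2 fold change 0.56, limma adjusted p = 0.0098). Of the vesicle endocytosis genes, 3 of 13 increased (23.1%, against 16.7% of all tested genes) and 2 decreased (15.4%, against 15.7%). Sh3gl3 and Dnm1 (dynamin 1) rose and Itsn1 fell (log2 fold changes 0.53, 0.49 and -0.36, limma adjusted p = 0.00685, 0.0192 and 0.0103). Leaving out scramble replicate 3 ended the calls of Rimbp2, Ppfia2, Syngr4 and Dnm1. Those of Syngr4 and Dnm1 were also lost without scramble replicate 1, and those of Ppfia2, Syngr4 and Dnm1 without siEXOSC3 replicate 1. With single libraries left out, the number called of the 59 ran from 18 (without scramble replicate 1 or 3) to 36 (without siEXOSC3 replicate 2). In siDDX1, 3 of 58 increased (5.17%, against 5.61% of all tested genes) and 2 decreased (3.45%, against 5.03%), so that the list as a whole stood near the background. The dense core granule protein Vgf rose from 124, 129.9 and 133 to 209.9, 186 and 184 FPKM, a log2 fold change of 0.58 ± 0.0708 (SE, n = 3 against 3, limma adjusted p = 0.00607), and the granule GTPase Rab27a from 17.5, 21.4 and 18.3 to 30.5, 33.6 and 23.02 FPKM, a log2 fold change of 0.57 ± 0.136 (SE, n = 3 against 3, limma adjusted p = 0.0361). The others were Stxbp2 (log2 fold change 0.27, limma adjusted p = 0.0472), Scamp3 (-0.31, limma adjusted p = 0.0356) and Synj1 (-0.44, limma adjusted p = 0.00751), the phosphatase that helps uncoat endocytic vesicles. Of these 5 siDDX1 calls only that of Vgf was kept with each single library left out, and the number called of the 58 ran from 1 (without scramble replicate 1 or 3) to 16 (without siDDX1 replicate 3).

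**Figure D5:**
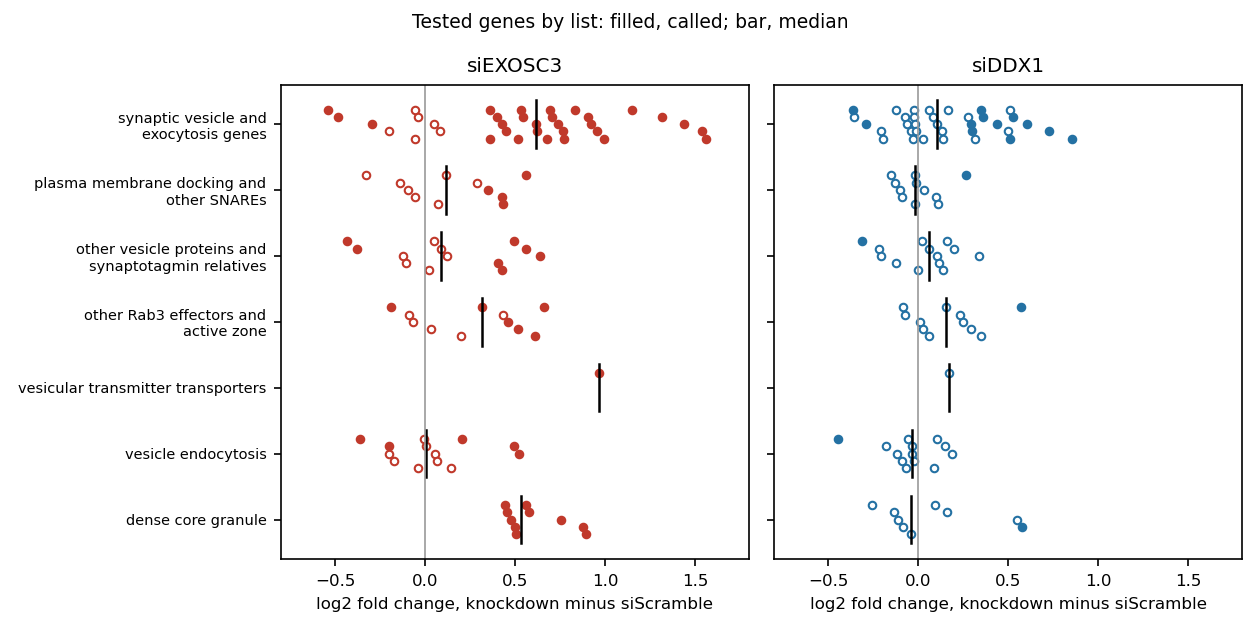
Log2 fold change (horizontal axis, knockdown minus scramble) of the tested vesicle and exocytosis genes and of 6 lists of further vesicle cycle genes, siEXOSC3 on the left and siDDX1 on the right. Filled points were called and bars are medians, 0.62 and 0.10 for the vesicle and exocytosis genes; the dense core granule genes are to the right of 0 in siEXOSC3 (9 of the 10 passed the filter in both conditions) and on both sides of it in siDDX1.

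Markers of cell types were read beside these results. Of 10 neuronal and neuroblastoma markers, 8 were tested, and 7 increased in siEXOSC3 (87.5%, against 16.7% of all tested genes) and 3 in siDDX1 (37.5%, against 5.61%), namely Gap43, Map1b and Elavl4. Their summed level was 635 to 647 FPKM in scramble, 1172 to 1208 in siEXOSC3 and 804 to 941 in siDDX1. The summed neuronal markers moved with the vesicle genes, and their part in the result was not tested. The 8 glial markers summed to 2.53 to 3.10 FPKM in scramble, 2.60 to 2.89 in siEXOSC3 and 2.99 to 3.29 in siDDX1, with Aqp4 and Olig1 listed at 0 throughout. The 5 fibroblast markers summed to 0.846 to 1.13 FPKM in scramble, 1.03 to 1.32 in siEXOSC3 and 0.862 to 0.906 in siDDX1, with Col1a2 and Lum at 0. The 6 immune and endothelial markers summed to 4.78 to 6.17, 6.59 to 10.1 and 5.83 to 6.79 FPKM in the same order. Most of that was Pecam1, which increased in siEXOSC3 (log2 fold change 0.67, limma adjusted p = 0.00827), while Ptprc was listed at 0 in scramble and siEXOSC3.

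Because the libraries do not keep strand, reads of overlapping genes cannot be separated. In GENCODE vM1, 12 of the 48 genes share exonic bases with a gene on the opposite strand. The overlap was 9 bases with Araf for Syn1 and 29 bases with Mpv17l2 for Rab3a. It was longer, with noncoding genes or pseudogenes, for Bsn (1813 bases), Syp (875), Syt4 (575), Syt6 (503) and Syt7 (384). The others were Snap29, which shares 60 bases with Pi4ka, and 4 genes under the filter (Syn3, Sv2b, Syt12 and Rab3b). Araf was at a mean of 26.9 FPKM in scramble and 37.3 in siEXOSC3, and Mpv17l2 at 11.6 and 12.7 FPKM. The part of these overlaps in the values above was not tested.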

How the data were processed

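RNA-seq of N2A cells used rRNA-depleted, nondirectional libraries, 3 for each of the scramble, EXOSC3 and DDX1 siRNAs. Per the labels and methods, the authors aligned reads to mm9 with TopHat2 version 2.1.0, sorted them with SAMtools and ran Cuffdiff version 2.2.1. They deposited FPKM per gene and library in 2 tables, each with the 3 scramble libraries. The annotation given to Cuffdiff is not given in the sources used here.

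Here the deposited FPKM were taken to log2 after adding 1, and genes averaging under 1 FPKM across a table's 6 libraries were dropped. The fit was made by limma (version 3.58.1, R version 4.3.3; lmFit, eBayes with trend, no covariates), two-sided, with Benjamini-Hochberg adjustment over all tested genes and a threshold of 0.05. Count models were not applied to FPKM, and Cuffdiff, the study's test, needs reads. The smallest p an exact permutation of 3 against 3 libraries allows is 0.1. The fit was tested on simulated data. Absolute depth is unknown, so the precision rests on the spread between replicates.

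The members and lists were chosen with earlier results of these data known. Values in every library are given for members called in at least 1 knockdown, and of those called in neither for the most abundant of each role. Of the further vesicle genes, up to 3 called per list and knockdown with the largest change are named, and some items are not reported here. Upstream sequence was printed for members with the largest change in each direction, and the windows with a CRE were chosen after the search. Stretches annotated as exon are limited to 30 bases. Positions came from GENCODE vM1 on NCBIM37, with promoter windows from RefSeq on GRCm38.p6 placed on NCBIM37 by exact match. Figures were drawn with matplotlib version 3.10.9.

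Alternatives were a pseudocount of 0.1, no filter, a mean of at least 5 FPKM, quantile normalization, median centring, a fit without the trend, replicate number taken as a block, and each library left out.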

Additional observations from a re-analysis of the deposited data

Results flagged for a closer look

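Of the 35 genes tested in both knockdowns, 6 had all 3 siEXOSC3 libraries on one side of the scramble mean and all 3 siDDX1 libraries on the other (17.1%, against 8.34% of the 11054 genes tested in both tables). The difference between the knockdowns was not tested for any of them, because the tables were scaled separately. In 5 of the 6 the siEXOSC3 libraries were the higher ones. The log2 fold changes in siEXOSC3 and siDDX1 were 0.69 and -0.20 for Chga, the granule cargo chromogranin A. They were 0.62 and -0.19 for Syn1 and 0.45 and -0.35 for Syt11. Snap25 had 0.36 and -0.0622, and its siDDX1 libraries overlapped those of scramble. Stx1a, the neuronal syntaxin, had 0.0845 and -0.12, and Nsf, the ATPase that separates SNAREs, had -0.0557 and 0.10, with neither gene called in either knockdown.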

How the results depend on the processing

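No called change of a member turned direction under the alternatives run. Among members without a call the sign of the log2 fold change turned under at least 1 alternative for Syt4 and Stx1a in siEXOSC3 and for Sv2c, Syt1, Syt17, Snap29, Vamp3, Cplx1, Napa and Rims2 in siDDX1. Of the calls over all genes in siEXOSC3, 51.5% were increases, and this share ran from 45.6% (mean of at least 5 FPKM) to 58.5% (no filter) under the settings that kept all libraries and from 48.7% to 63.8% with single libraries left out. In siEXOSC3 the number of members increased ran from 24 to 27 and the number decreased was 3 under the settings that kept all libraries, with 23 to 26 and 2 to 3 when single libraries were left out. Without the filter on low FPKM the median of the members was 0.438 in siEXOSC3 and 0.0447 in siDDX1, over 46 members. That setting gave 4 members increased and 1 decreased in siDDX1, 717 genes called in all and 2 other vesicle cycle genes called, against 17015 and 16981 genes tested in the tables. Without the intensity trend 1 member decreased in siDDX1. For these the cause was not tested. Leaving out single libraries gave 1610 to 4887 genes called in siEXOSC3, where the fit with all libraries called 3644, and 158 to 3524 in siDDX1, where it called 1182. Other vesicle cycle genes called ran from 18 to 36 in siEXOSC3 and from 1 to 16 in siDDX1. The siDDX1 members increased ran from 2 to 13 and those decreased from 0 to 3, and the siDDX1 median ran from 0.0965 to 0.139. The siEXOSC3 median ran from 0.511 to 0.684. With replicate number as a block, siDDX1 had 1893 genes called and siEXOSC3 2449, with 13 and 24 members increased and 3 decreased in each. Syp, Syt11, Vamp1 and Unc13a were then called in siDDX1 and Vamp1 and Bsn were not called in siEXOSC3. Vamp1 and Bsn also lost that call without the filter, and Bsn after quantile normalization. In siDDX1 the calls of Syt5, Syt6, Syt7, Napb, Rab3c, Rims3 and Chgb were lost without the filter, those of Syt6, Rab3c and Chgb without the trend, and that of Chgb after quantile normalization. The other 5 of the 12 siDDX1 calls were kept in all settings with the full set of libraries. Same-numbered libraries deviated together with correlations across genes of 0.035, -0.31 and -0.13 in the siEXOSC3 table and -0.012, 0.38 and 0.37 in the siDDX1 table, and of the knockdown libraries siDDX1 replicates 2 and 3 correlated best with their own number, so the samples share a number and are not shown to be paired. Absolute depth is unknown, and members under 1 FPKM were tested in the fit without a filter alone.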

Other observations

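Besides Sv2b, 3 members under the filter lay above scramble in every siEXOSC3 library. How often this held over all genes under the filter was not counted. Syt3 was at 0.275, 0.481 and 0.325 FPKM in scramble and at 0.896, 0.843 and 1.29 FPKM in siEXOSC3. Syt9 was at 0.194, 0.0844 and 0.0822 and 0.407, 0.291 and 0.269 FPKM, and Syt2, a fast calcium sensor like Syt1, at 0.0148, 0.0642 and 0.0937 and 0.179, 0.227 and 0.273 FPKM. In siDDX1 Syt2 was again above its scramble libraries, at 0.105, 0.113 and 0.110 FPKM, while Syt3 and Syt9 overlapped them. In the fit without a filter, these 3 were called in siEXOSC3, with limma adjusted p of 0.0188 (Syt3), 0.0379 (Syt9) and 0.0234 (Syt2). Of all 17015 genes in that fit, 10.8% increased and 7.63% decreased. None of the 11 members under the filter that it tested was called in siDDX1 (smallest limma adjusted p 0.167), where 2.28% of all 16981 genes increased and 1.94% decreased. At these levels a value can rest on few fragments.

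Sv2b was listed at 0 in the 3 scramble libraries and at 0.0109, 0.0369 and 0.0209 FPKM in siEXOSC3 and 0.00922, 0.0260 and 0.0299 FPKM in siDDX1, and no fold is given.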
